A study of Mus musculus with 34 samples.

Results

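The genes described are 9 genes of the oligodendrocyte lineage and of myelin, followed across the brain of mice aged 3 days. All array probes whose RefSeq accession belongs to one of these genes were taken, which gave 13 probes among the 55681 probes that are not controls, and 9 genes among the 20145 gene symbols matched on the array. Of these, 5 encode proteins of the myelin sheath or of the cell that makes it: Mbp (myelin basic protein, which compacts the sheath), Mag (myelin-associated glycoprotein, which faces the axon), Mog (a glycoprotein of the outermost layer), Mobp (a small protein of compact myelin) and Cnp (a phosphodiesterase of the non-compact cytoplasm). The other 4 mark the lineage: the transcription factors Sox10, Olig1 and Olig2, and Pdgfra, the receptor through which precursor cells receive their main growth signal.

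Oligodendrocytes arise from dividing precursors that spread through the whole brain before birth. The precursors carry Pdgfra and lose it as they mature, while Sox10, Olig1 and Olig2 stay on through most of the lineage. Myelination of the mouse brain is known to begin in the hindbrain and to reach the forebrain later, so that in the first days after birth the brainstem is the part of the brain where sheaths are being laid down.

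The brains of 3 male C57BL/6J mice were each cut along 1 axis into fractions of 100 slices of 5 µm, giving 15 coronal fractions of mouse 1, 8 horizontal fractions of mouse 2 and 11 sagittal fractions of mouse 3. Sagittal fractions 1 and 11 each pool 2 cut fractions. Total RNA of each fraction was measured on 1 single-colour array, with no treatment or mutation in any group, and the question put to the data was how genes of the precursor and genes of the sheath are graded along the axes of the body. No fraction has a replicate array and each series is 1 mouse, so axis and mouse cannot be told apart, and a p-value speaks of positions within that mouse and not of other mice. The values are log2 normalized signals, the log2 of the background-subtracted brightness of a probe less the log2 of the 75th percentile of its array. In such tissue, fewer cells of a type and less RNA per cell cannot be told apart.

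Between 29598 and 37091 of the 59305 spots on an array were well above background and 0 were saturated. The numbering was read from position genes, since the labels do not give the starting end. In the coronal series the 7 Hox genes listed for the hindbrain were highest in fraction 2 for 5 genes and in fraction 3 for 2 genes, and Emx1, a factor of the cortex, was not above background in fractions 1 to 3. All 3 olfactory bulb genes (Eomes, Tbx21 and Doc2g) were highest in fraction 15, so coronal numbers run from the caudal to the rostral end. In the horizontal series Emx1 was highest in fraction 2 (2.01) and lowest in fraction 7 (-0.39), and the hypothalamic gene Agrp was highest in fraction 8 (2.63), so numbers run from dorsal to ventral. Horizontal fraction 1 stands apart from its neighbours, since Hoxa3 stood at -0.48 there and was not above background in fractions 2 and 3. The arrays lay on 5 slides, and in the coronal series slide and position nearly coincide: slide 2 held fractions 1 to 8, slide 3 held fractions 9 to 11 and 13 to 15, and slide 5 held fraction 12.

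The promoter sequences of the 4 genes whose coronal slope passed the test described further on are shown because they include sheath genes and a precursor gene. They come from a RefSeq table of assembly GRCm38.p6 and cover 300 bases around the start of a transcript, most of them before it, 5′ to 3′ on the strand of the gene. Windows of 6 of the 9 genes were searched, and Mbp, Sox10 and Olig1 had none among them. Shares of windows given here are of the windows searched and not of all promoters. Capitals mark, on either strand, ACAAAG, a core that SOX factors bind, and CTGGNAC, a core that the myelin regulator MYRF binds. The E-box CAGCTG and the letters TATAAA were searched as well and occur in none of the 4 sequences. They were found in 16.3% and 13.6% of the windows searched. Mag has 3 windows in the table, and the one at the outer end of the gene is shown. The windows lie at chr9:120149492-120149791 (plus strand) for Mobp, chr7:30914873-30915172 (minus strand) for Mag, chr11:100574689-100574988 (plus strand) for Cnp and chr5:75152001-75152300 (plus strand) for Pdgfra.
Mobp: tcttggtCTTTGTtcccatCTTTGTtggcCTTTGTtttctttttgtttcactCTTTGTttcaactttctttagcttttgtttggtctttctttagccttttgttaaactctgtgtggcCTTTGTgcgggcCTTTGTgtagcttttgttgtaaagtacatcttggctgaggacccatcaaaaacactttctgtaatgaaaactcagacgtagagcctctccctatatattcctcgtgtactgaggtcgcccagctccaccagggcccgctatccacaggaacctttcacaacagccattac
Mag: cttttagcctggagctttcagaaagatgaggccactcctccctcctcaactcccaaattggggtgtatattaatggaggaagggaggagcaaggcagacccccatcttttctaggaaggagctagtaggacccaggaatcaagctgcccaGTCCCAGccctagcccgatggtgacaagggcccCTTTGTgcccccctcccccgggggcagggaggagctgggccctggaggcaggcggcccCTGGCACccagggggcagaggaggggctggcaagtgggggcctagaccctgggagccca
Cnp: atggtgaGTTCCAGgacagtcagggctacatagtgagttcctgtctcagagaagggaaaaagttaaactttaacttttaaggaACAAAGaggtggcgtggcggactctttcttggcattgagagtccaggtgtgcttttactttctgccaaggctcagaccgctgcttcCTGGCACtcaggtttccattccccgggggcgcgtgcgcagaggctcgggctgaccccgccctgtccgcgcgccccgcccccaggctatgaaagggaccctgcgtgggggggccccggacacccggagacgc
Pdgfra: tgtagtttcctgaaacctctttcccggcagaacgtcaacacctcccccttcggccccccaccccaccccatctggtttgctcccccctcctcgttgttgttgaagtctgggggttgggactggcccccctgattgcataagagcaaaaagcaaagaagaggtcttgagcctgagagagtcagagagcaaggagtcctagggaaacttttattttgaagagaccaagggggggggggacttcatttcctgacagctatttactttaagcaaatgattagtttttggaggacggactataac
ACAAAG is found in 18.7% and CTGGNAC in 19.3% of the 32851 windows of this length searched. The Mobp window holds 6 matches to ACAAAG, all on the minus strand, and is the only window searched with 6 or more. The Mag and Cnp windows each hold 1 match to ACAAAG and 2 to CTGGNAC, and the Pdgfra window holds none of either. No 2 matches overlap. A match describes letters and not a bound site, and the absence of a match says only that these letters are not in the window.

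Along the coronal series, Mag, Mobp and 1 of the 3 Mbp probes were highest in fraction 3 and lay far lower in the forebrain, whereas Pdgfra declined by small steps over the whole length and Olig1 and Olig2 stayed level over the middle fractions. Of the 9 genes, each taken by its probe with the highest median signal, 4 passed the test for a slope, all with lower signal towards the rostral end: Mag, Mobp, Cnp and Pdgfra (limma, Benjamini-Hochberg adjusted over all 34186 probes tested). Over those probes 28.3% passed in either direction, 18.9% rising and 9.44% falling in rostral direction, so that 4 falling genes of 9 stand against 9.44%. With each array scaled to the same distribution (quantile normalization), the 6449 rising and 3228 falling probes became 4268 and 3779.

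Mag lay between -2.06 in fraction 14 and 2.85 in fraction 3 with a median of 0.18, a span of 4.91 on the log2 scale. From fraction 3 to fraction 14 each fraction was lower than the one before. Its slope was -0.336 ± 0.029 (SE) on the log2 scale per fraction (limma adjusted p = 4.53e-06).

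Mobp, by its probe A_55_P1958798, reached 2.35 in fraction 3 and had a median of -4.03 over the 15 fractions. It was well above background in 9 of them, fractions 1 to 8 and 15, and not above background in fractions 9 to 14, so that fraction 3 was at least 129-fold above the mean of those 6 fractions, each taken at the higher of its own signal and the lowest signal well above background on its array. The slope of the log2 values was -0.584 ± 0.088 (SE) per fraction (limma adjusted p = 0.000322). A further probe, A_51_P291224, was also highest in fraction 3 (-0.71), was above background in fractions 1 to 8 and fell by 0.401 ± 0.059 (SE) per fraction on the log2 scale (limma adjusted p = 0.000259). The last Mobp probe, A_55_P1958793, was above background in 2 coronal fractions and in no fraction of the other series, and was not tested.

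The 3 probes of Mbp did not follow each other. A_52_P329451 went from 1.27 in fraction 3 to -3.36 in fraction 9, a 24.8-fold span with a median of -2.37, and its slope was -0.331 ± 0.054 (SE) per fraction (limma adjusted p = 0.000585). A_52_P604195, the probe with the highest signal and so the one that stands for the gene, stayed between 2.18 in fraction 15 and 3.07 in fraction 9 with a median of 2.74 (slope -0.030 ± 0.013, adjusted p = 0.0973). A_55_P1992160 stayed between -2.12 and -1.27 with a median of -1.79 (slope -0.007 ± 0.015, adjusted p = 0.774). Over the 34 fractions A_52_P329451 had Pearson's r = 0.033 with A_52_P604195 and r = 0.912 with Mag. The accessions in the files give A_52_P329451 and A_55_P1992160 the same Mbp transcript and A_52_P604195 another.

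Mog lay between -2.15 and -1.39 with a median of -1.81, a 1.69-fold span, and its slope of 0.009 ± 0.012 did not pass (adjusted p = 0.637). Cnp was highest in fraction 3 (3.29), lowest in fraction 9 (1.73) and had a median of 2.21. It stood at 2.37 in fraction 15, above its values in fractions 13 and 14 (1.77 and 1.76), and its slope of -0.076 ± 0.024 passed with an adjusted p of 0.0255 (limma).

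**Figure D1:**
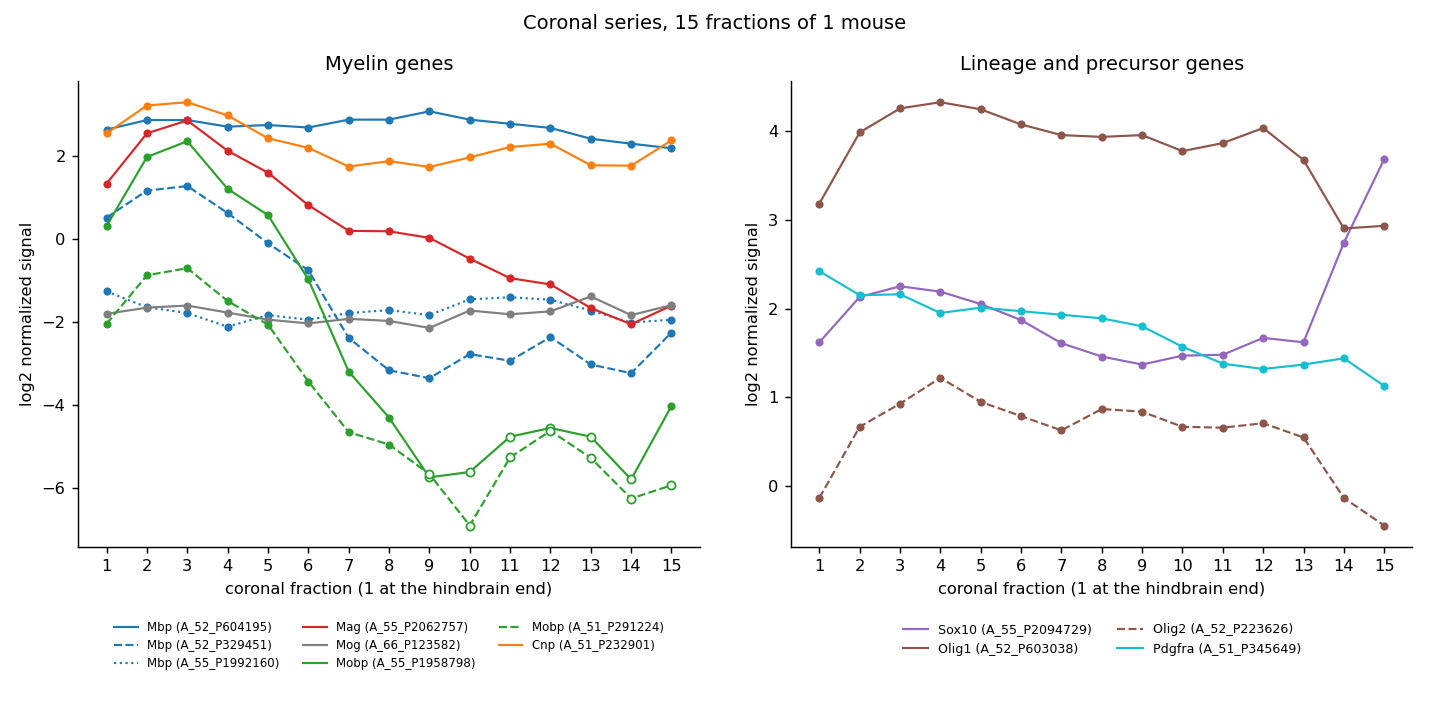
Log2 normalized signal of the member probes in each of the 15 coronal fractions (x axis, 1 at the hindbrain end); open points were not well above background. Mag, both Mobp probes and Mbp A_52_P329451 are highest in fraction 3, while the other Mbp probes and Mog stay level and Sox10 is highest in fraction 15.

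Among the lineage genes, Pdgfra went from 2.42 in fraction 1 to 1.13 in fraction 15 with a median of 1.89, a 2.43-fold span. Its slope of -0.081 ± 0.008 had the smallest SE of the 12 member probes tested (limma adjusted p = 1.42e-05). Pdgfra is the receptor of precursors, and it was highest in fraction 1. Mag, Mobp and Cnp were highest in fraction 3, Mbp by its brightest probe in fraction 9 and Mog in fraction 13. Other precursor genes, 14 of which are taken up further on, were also summed. The log2 of their summed signal was lowest in fraction 1 (5.08) and highest in fraction 12 (5.86). Pdgfra had a span of 1.28 on the log2 scale against 4.91 for Mag.

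Olig1 and Olig2, related lineage factors both encoded on chromosome 16, were both highest in fraction 4 (4.32 and 1.22). Both were low at either end of the series. Olig1 stood at 3.18 in fraction 1 and at 2.90 and 2.93 in fractions 14 and 15, with 3.67 to 4.25 in fractions 2 to 3 and 5 to 13. Olig2 stood at -0.13 in fraction 1 and at -0.13 and -0.44 in fractions 14 and 15. Neither slope passed (Olig1 -0.050 ± 0.023, adjusted p = 0.124, Olig2 -0.042 ± 0.025, adjusted p = 0.216). Both passed without fraction 1, with slopes of -0.082 ± 0.018 (adjusted p = 0.00341) and -0.076 ± 0.019 (adjusted p = 0.00852), and then 7 of the 9 genes passed, all falling, against 12.1% of all probes. With fraction 1 kept and fractions 14 and 15 left out, neither passed. Olig1 then stood at -0.003 ± 0.022 (limma adjusted p = 0.921) and Olig2 at 0.008 ± 0.023 (limma adjusted p = 0.834).

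Sox10 took a course of its own. It was at 2.25 in fraction 3, lowest in fraction 9 (1.37) and highest in fractions 14 (2.74) and 15 (3.68), with a median of 1.67. The straight line through these values did not pass (0.036 ± 0.034, adjusted p = 0.470). Without fractions 14 and 15 the slope was -0.051 ± 0.018 and passed (adjusted p = 0.0425, with 10.5% of all probes falling), so those 2 fractions turned its direction.

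In fractions 14 and 15, where Sox10 was highest, Mag stood at -2.06 and -1.61 and Mobp at -5.80 and -4.03. Ensheathing glia of the olfactory nerve also use Sox10, so 6 genes were looked up after these values were seen, and their values are descriptions. Over all 15 fractions Npy had a rising slope that passed, Ngfr and S100b had falling ones, and Foxd3, Frzb and Fabp7 did not pass. Of them Foxd3, Frzb, Npy and Fabp7 were highest in fraction 15, at 0.56, 2.70, 6.11 and 8.50. S100b stood at 3.65 in fraction 15 and 0.33 in fraction 13 but was highest in fraction 4 (4.08), and Ngfr stood at 0.24 in fraction 15 with its highest value in fraction 3 (3.10). Foxd3 is also on the list of Schwann cell genes used further on. The log2 of the summed signal of these 6 genes ran from 7.29 in fraction 2 to 8.82 in fraction 15. Of the lists for other cell types used further on, 3 also had their highest sum in fraction 15. These were Schwann cells (4.06), fibroblasts and meninges (7.89) and microglia (5.51). The sums of astrocytes, neurons and dividing cells were highest in fractions 2, 13 and 1. The part of any of these cells in the Sox10 values was not tested.

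**Figure D2:**
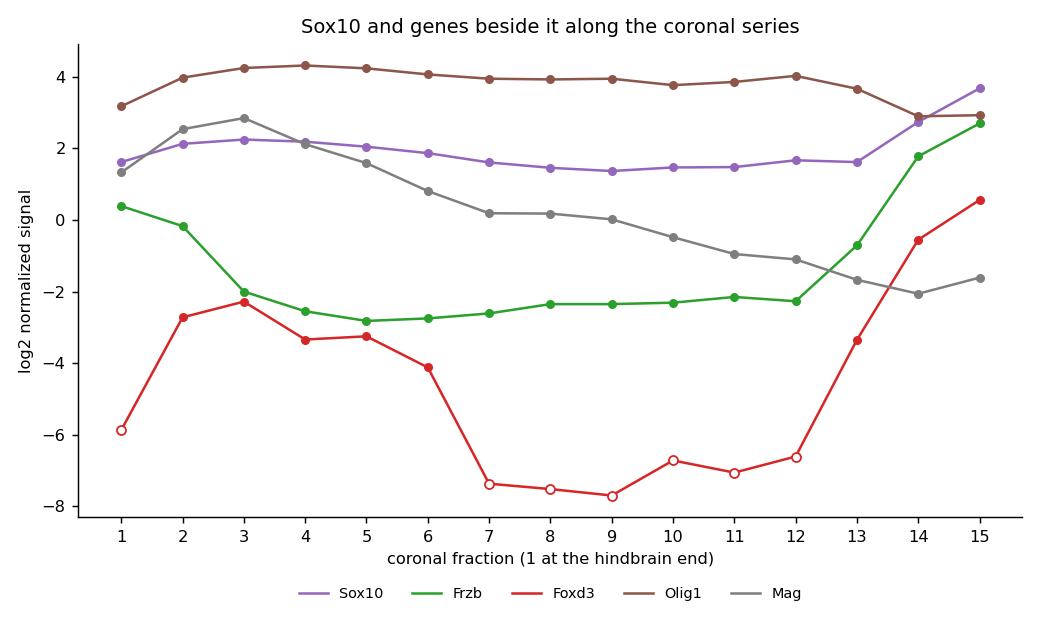
Log2 normalized signal of Sox10, Olig1, Mag, Foxd3 and Frzb in the 15 coronal fractions (x axis, 1 at the hindbrain end); open points were not well above background. Sox10 stands at 2.74 and 3.68 in fractions 14 and 15, where Foxd3 and Frzb are at their highest and Olig1 stands at 2.90 and 2.93. Foxd3 and Frzb are drawn from the 6 ensheathing glia genes looked up after the values were seen. Of those 6, 4 were highest in fraction 15, 1 in fraction 3 (Ngfr) and 1 in fraction 4 (S100b).

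The coronal slopes were also read within slides. With slide as a block, 138 of all probes (0.404%) passed with falling signal and Mag alone of the 9 genes did, with a slope of -0.314 ± 0.063 (adjusted p = 0.0390). The block left Mobp at -0.423 ± 0.182 (adjusted p = 0.331), Mbp A_52_P329451 at -0.326 ± 0.115 (adjusted p = 0.240), Cnp at -0.099 ± 0.049 (adjusted p = 0.416) and Pdgfra at -0.070 ± 0.016 (adjusted p = 0.0744). Within slide 2, which spans fractions 1 to 8, Mobp had a slope of -0.819 ± 0.192, Mbp A_52_P329451 -0.598 ± 0.108, Cnp -0.190 ± 0.054 and Pdgfra -0.063 ± 0.018, and all 4 passed against 7.72% of all probes, while Mag at -0.315 ± 0.097 did not (adjusted p = 0.0573). Within slide 3, fractions 9 to 15 without 12, Mag passed at -0.313 ± 0.055 (adjusted p = 0.0347, with 3.39% of all probes falling) and so did Mbp A_52_P604195 at -0.149 ± 0.026 (adjusted p = 0.0339). Pdgfra stood at -0.081 ± 0.031 (adjusted p = 0.158) and Mobp, at background in 5 of those 6 fractions, at 0.172 ± 0.102 (adjusted p = 0.314). Slide and brain level cannot be told apart beyond this.

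Each probe was tested against 1 precursor gene, Pdgfra, by fitting the slope of the probe's signal less that of Pdgfra on the same array. Pdgfra does not stand for precursor genes as a set. The 14 others taken up further on had a median coronal slope of 0.004, with 5 falling and 4 rising. Because Pdgfra itself declined, 78.0% of all probes had a slope above that of Pdgfra and only 1.8% a slope below it, 79.8% in all (limma, adjusted over 34185 probes). Mag (-0.255 ± 0.032, adjusted p = 3.82e-06), Mobp (-0.503 ± 0.090, adjusted p = 9.85e-05) and Mbp A_52_P329451 (-0.250 ± 0.057, adjusted p = 0.000809) were among that 1.8%, falling more steeply than Pdgfra. With slide as a block Mag kept this call (-0.244 ± 0.068, adjusted p = 0.0175, against 0.585% of all probes), while Mobp (-0.353 ± 0.185, adjusted p = 0.137) and Mbp A_52_P329451 (-0.256 ± 0.120, adjusted p = 0.101) did not, and within slide 3 the latter 2 stood at 0.253 and 0.163. Mbp A_52_P604195 (0.051 ± 0.014) and Mog (0.089 ± 0.016) lay with the 78.0% above it, and neither passed with slide as a block (adjusted p = 0.584 and 0.115). Cnp did not differ from Pdgfra by more than its error (0.004 ± 0.028, adjusted p = 0.888). With Olig1, Olig2 or Sox10 in the place of Pdgfra, Mag and Mobp again passed below the reference, against 2.24%, 2.04% and 2.97% of all probes, and no other myelin gene passed by its brightest probe. Sox10 had a slope above that of Pdgfra (0.117 ± 0.035, adjusted p = 0.00661), which was 0.032 ± 0.023 without fractions 14 and 15 (adjusted p = 0.205).

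Along the horizontal series, 3 of the 5 myelin genes (Mag, Mobp and Cnp) and 3 of the 4 lineage genes (Sox10, Olig1 and Olig2) were highest in fraction 6, below the middle of the brain. None of the 9 genes passed the test for a straight dorsal to ventral slope (limma, adjusted over all probes), and 2 did so at an unadjusted p under 0.05. Over all probes 1.76% passed, and 17.1% at an unadjusted p under 0.05. With a curve in place of a straight line the count was again 0 of 9, with 3.29% of all probes passing.

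Mag lay between -1.14 in fraction 2 and 2.06 in fraction 6 with a median of 0.37, a 9.15-fold span. Mobp (A_55_P1958798) reached 1.33 in fraction 6 with a median of -1.49 over the 8 fractions, and was not above background in fractions 2 and 3, which puts fraction 6 at least 92.5-fold above the mean of those 2. Mbp A_52_P329451 lay between -3.28 in fraction 3 and 0.41 in fraction 6 with a median of -1.52. These 3 probes thus shared their high and their low fractions.

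Cnp lay between 1.44 in fraction 2 and 3.10 in fraction 6 with a median of 2.18. The other Mbp probes and Mog again spanned little, 0.66 on the log2 scale for A_52_P604195, 0.98 for A_55_P1992160 and 0.80 for Mog. All 3 were highest in fraction 1 or 2, at the dorsal end.

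Horizontal fraction 1 broke the dorsal decline. There Mag stood at 0.63, Mobp at -0.69 and Mbp A_52_P329451 at -1.23, each above its values in fractions 2, 3 and 4. Without fraction 1 the slopes went from 0.255 ± 0.133 to 0.426 ± 0.134 for Mag, from 0.763 ± 0.398 to 1.395 ± 0.326 for Mobp and from 0.184 ± 0.062 to 0.278 ± 0.054 for Cnp, and 0 of the 9 genes passed (1.54% of all probes). Without fractions 1 and 8 Mobp passed, at 1.961 ± 0.247 (adjusted p = 0.0443, with 0.418% of all probes rising). Mobp was not above background in fractions 2 and 3, so the size of its slopes here rests in part on values at background.

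Among the lineage genes, Sox10 lay between 1.30 in fraction 3 and 2.32 in fraction 6 with a median of 1.62 (slope 0.121 ± 0.039, adjusted p = 0.176). Olig1 lay between 3.87 and 4.40 with a median of 3.98, and Olig2 between 0.54 and 1.15 with a median of 0.80. Pdgfra stood at 1.70 and 1.78 in fractions 1 and 2 and between 1.97 and 2.17 in fractions 3 to 8, with a median of 2.08 and a slope of 0.038 ± 0.028 (adjusted p = 0.534).

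Against Pdgfra, the horizontal slopes were 0.724 ± 0.390 for Mobp, 0.309 ± 0.159 for Mbp A_52_P329451, 0.216 ± 0.136 for Mag and 0.145 ± 0.076 for Cnp, and none passed. Over all probes 0.62% did. At an unadjusted p under 0.05 the count of member genes was 0, against 17.7% of all probes. With Olig1 or Olig2 in the place of Pdgfra none of the myelin genes passed either, against 0.462% and 0.357% of all probes. Against Sox10 the probe Mbp A_55_P1992160 passed (-0.202 ± 0.062, adjusted p = 0.0424) where 21.5% of all probes had a lower slope than Sox10, and no gene passed by its brightest probe. At an unadjusted p under 0.05 the counts of the other 8 member genes were 2, 2 and 3 against Olig1, Olig2 and Sox10. In a simulated horizontal series of this size, 0 of 50 planted slopes of 0.1 and 37 of 50 planted slopes of 0.4 were recovered. That simulation had independent noise and no reference gene, so it does not speak of slopes against Pdgfra, Olig1, Olig2 or Sox10.

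**Figure D3:**
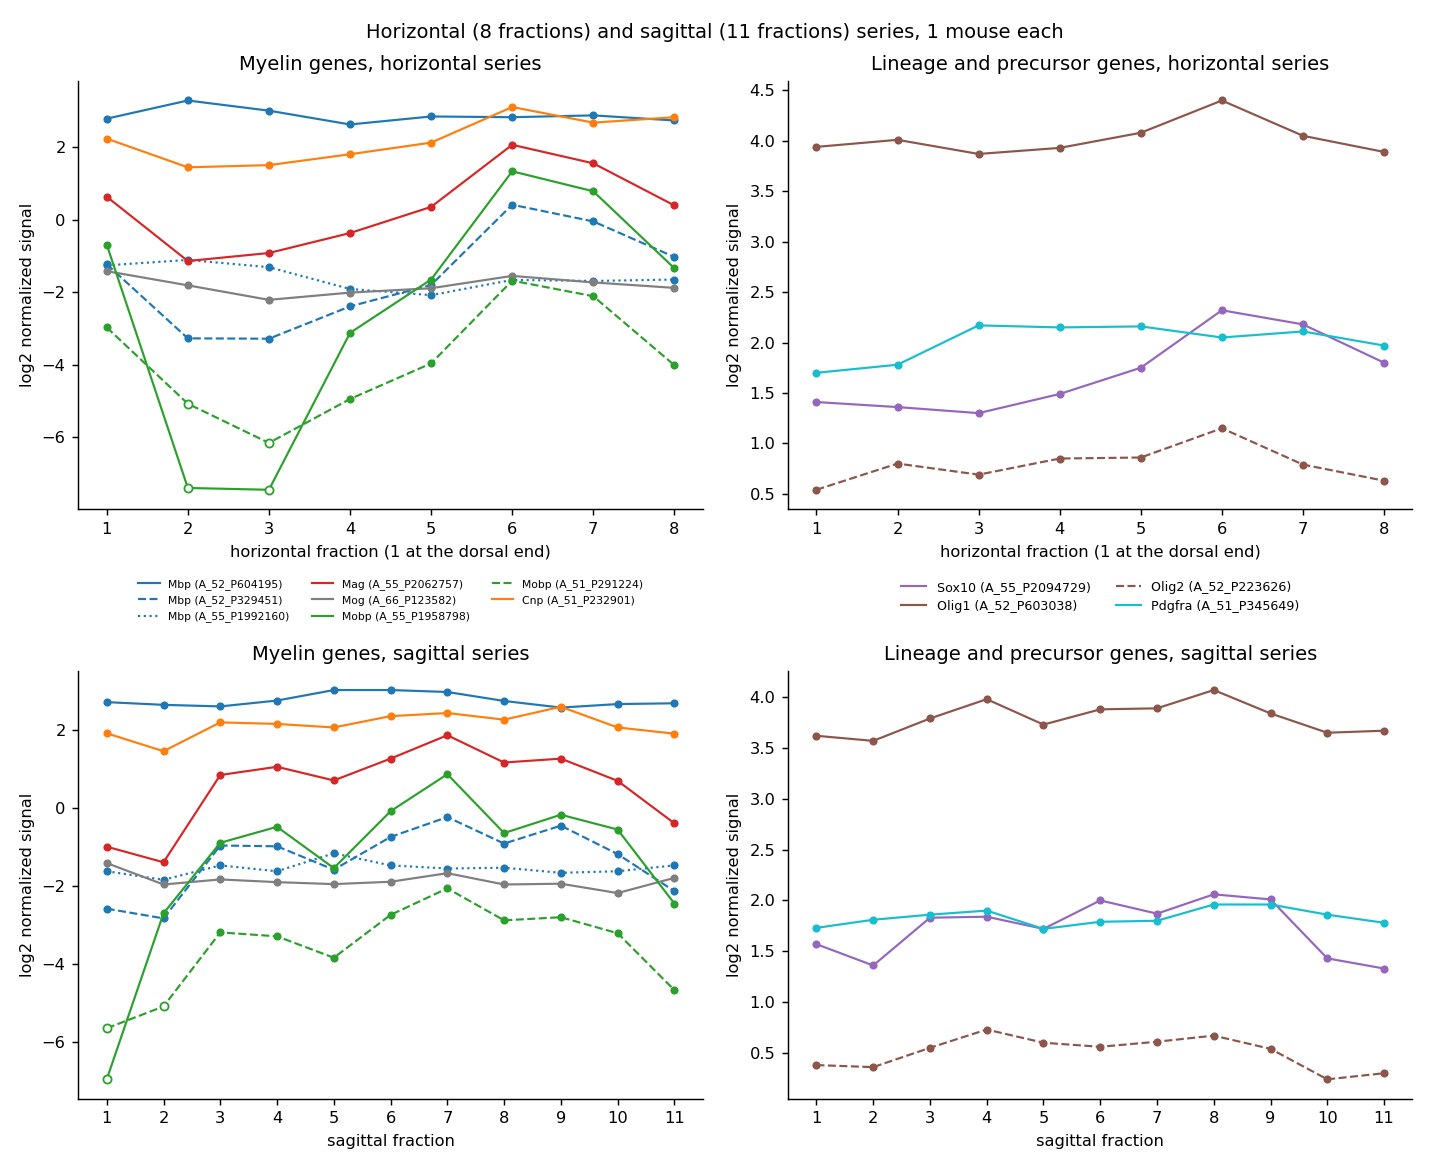
Log2 normalized signal of the member probes in the 8 horizontal fractions (top, 1 at the dorsal end) and the 11 sagittal fractions (bottom); open points were not well above background. In the horizontal series Mag, Mobp and Mbp A_52_P329451 are highest in fraction 6 and stand higher in fraction 1 than in fractions 2 to 4, and in the sagittal series they are lowest at the sides.

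Across the sagittal series, taken by the distance from fraction 6 as the middle, 5 of the 9 genes passed, all with lower signal towards the sides: Mbp, Mag, Mobp, Sox10 and Olig2. Over all probes 28.3% passed, 6257 with higher and 3409 (9.97%) with lower signal at the sides. That the midline lies in fraction 6 is an assumption, as the labels do not give it. With each array scaled to its median in place of its 75th percentile the split over all probes became 10211 higher and 2174 lower, the median slope over all probes went from 0.014 to 0.048, and 2 of the 9 genes (Mag and Mobp) passed. The count was 2 without fraction 1 (Mbp and Sox10, with 7.04% of all probes lower at the sides). It was 2 without fraction 11 (Mbp and Mag, 7.79%), 1 without both (Mbp, 4.34%) and 2 with the middle at 5.5 (Mbp and Olig2, 7.37%). Mbp stands in these counts by its brightest probe, A_52_P604195. Mbp A_52_P329451 did not pass without fraction 1 (limma adjusted p = 0.149) or without both (limma adjusted p = 0.371).

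Mag lay between -1.40 in fraction 2 and 1.86 in fraction 7 with a median of 0.84, and its slope was -0.460 ± 0.123 per fraction of distance (adjusted p = 0.0179). Mobp lay at 0.86 in fraction 7 and was not above background in fraction 1, with a median of -0.65 (slope -0.838 ± 0.284, adjusted p = 0.0478). Without fraction 1 its slope was -0.434 ± 0.172 and did not pass (adjusted p = 0.107). Mbp A_52_P329451 lay between -2.84 in fraction 2 and -0.24 in fraction 7 with a median of -0.99 (slope -0.342 ± 0.115, adjusted p = 0.0459). These genes were low in fractions 1, 2 and 11 and high in fractions 3 to 10.

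The other sagittal slopes were small. Mbp A_52_P604195 passed at -0.077 ± 0.022 within a span of 0.45 on the log2 scale, Sox10 at -0.117 ± 0.035 and Olig2 at -0.072 ± 0.022. Cnp (-0.104 ± 0.047, adjusted p = 0.123), Olig1 (-0.062 ± 0.024, adjusted p = 0.0824), Mog (0.022 ± 0.037) and Pdgfra (-0.003 ± 0.019) did not. Pdgfra spanned 0.24 on the log2 scale, the least of the 12 probes tested, from 1.72 in fraction 5 to 1.96 in fraction 9. With slide as a block, Mbp A_52_P604195 stood for the 1 gene that passed (-0.126 ± 0.028, adjusted p = 0.0365, with 2.71% of all probes lower at the sides). Mag then stood at -0.505 ± 0.190 (adjusted p = 0.144) and Mobp at -0.527 ± 0.239 (adjusted p = 0.217).

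**Figure D4:**
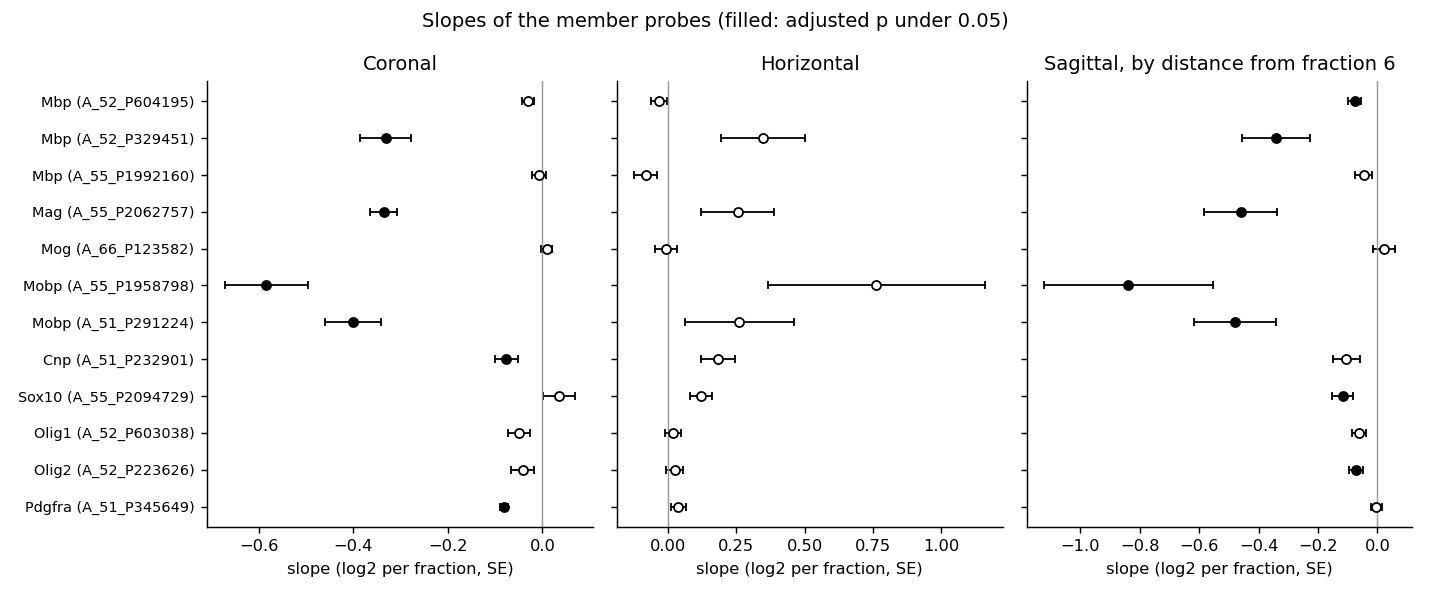
Slope of each member probe in log2 per fraction (x axis, bars are 1 SE) in the coronal, horizontal and sagittal series; filled points had an adjusted p under 0.05 over all probes. In the coronal series Mobp, Mag and Mbp A_52_P329451 lie between -0.584 and -0.331 and Pdgfra at -0.081, and no horizontal slope is filled.

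Over all 34 fractions, 8 of the 66 pairs of member probes had Pearson's r of at least 0.85. Of these, 6 join Mbp A_52_P329451, Mag and the 2 Mobp probes (r = 0.889 to 0.954), and the others join Mbp A_52_P329451 with Cnp (0.887) and Olig1 with Olig2 (0.954). The count was also 8 with Spearman's rho and with the mean of each series removed. Points along a series are neighbours in 1 brain, so these values are descriptions.

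**Figure D5:**
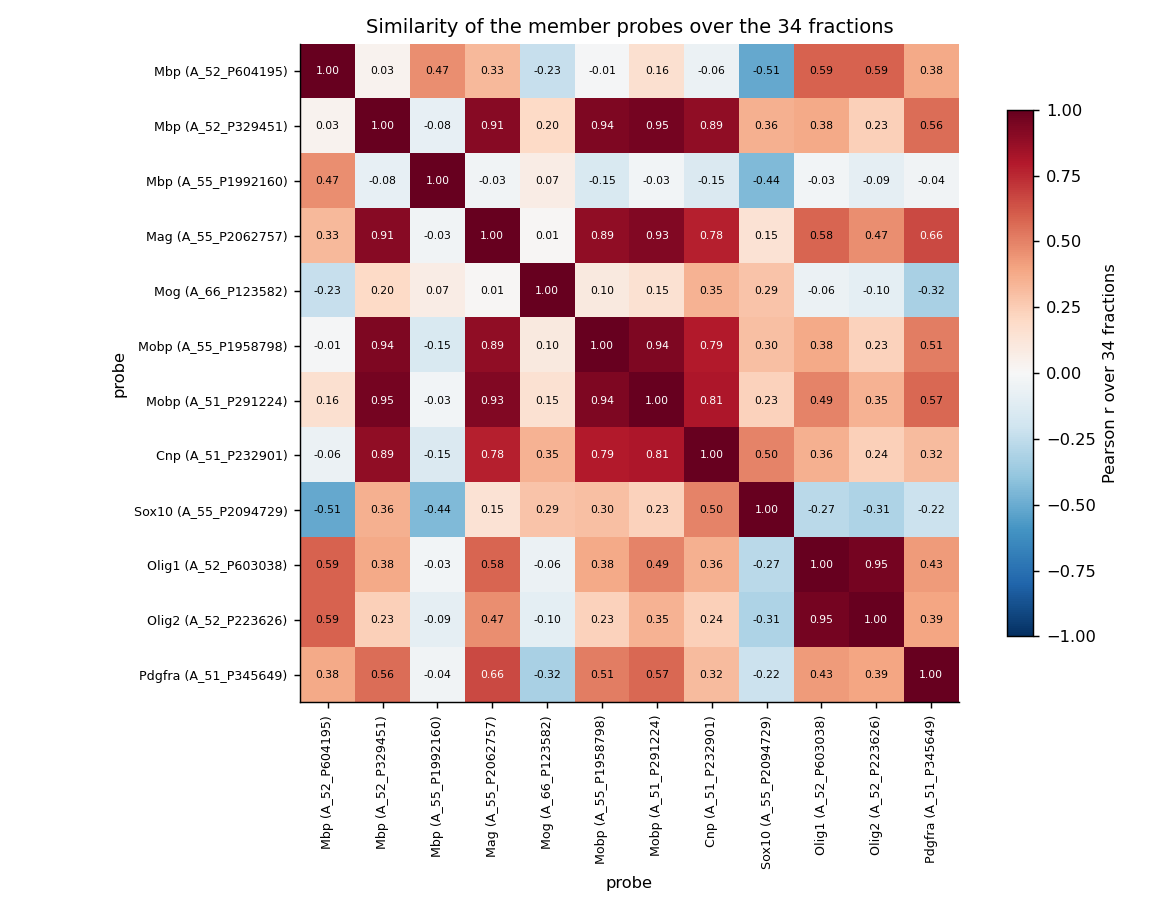
Pearson's r over the 34 fractions between the 12 member probes tested (both axes, colour and printed value). The 4 probes of Mbp A_52_P329451, Mag and Mobp form a block with r from 0.889 to 0.954, Olig1 and Olig2 a pair at 0.954, and Mog and the other Mbp probes stand apart.

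The genes most like Mag over the 34 fractions were Sgk2 (r = 0.956), Ugt8a (0.945), Slc6a9 (0.943), Fa2h (0.942) and Lgi3 (0.941), of which Ugt8a and Fa2h make the sphingolipids of myelin. The genes most like Mbp A_52_P329451 included Mobp (0.954), Hoxa2 (0.952), Hoxb2 (0.938) and Lamp5 (0.936). Hoxa2 and Hoxb2 are markers of hindbrain position. Mbp A_52_P604195 had no probe at r of 0.85 or more, its nearest genes being Spin1 (0.783), Fam185a (0.768), Stk33 (0.746), Jhy (0.746) and Zscan18 (0.737). Olig1 was most like Olig2 (0.954), then Vstm5 (0.866), Vsnl1 (0.85), Mapk9 (0.842) and Ephb1 (0.838), and Pdgfra was most like Mcc (0.877), Ust (0.867), Ing5 (0.863), Sytl2 (0.860) and Car8 (0.853).

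Other genes of the lineage were taken from lists. The counts of these and the lists after them stand against the following shares of all 34186 probes. In the coronal series 9.44% fell and 18.9% rose, and 13665 probes had an unadjusted p under 0.05. In the horizontal series 1.76% passed, and 17.1% had an unadjusted p under 0.05. In the sagittal series 9.97% were lower and 6257 probes higher at the sides. Of 25 further myelin protein genes 22 could be tested. In the coronal series 6 fell and 1 rose in rostral direction (median slope -0.021 against 0.009 over all probes). By fraction of highest signal, 8 of the 22 peaked in fraction 15, 4 each in fractions 1 and 4, and 3 in fraction 3. The log2 of their summed signal was highest in fraction 15 (7.76). Omg (-0.144 ± 0.028), a glycoprotein on the surface of oligodendrocytes, Tspan2 (-0.135 ± 0.017), Pllp (-0.100 ± 0.021) and Car2 (-0.100 ± 0.023) had the largest slopes among those that passed, and the connexin gene Gjb1 rose (0.073 ± 0.015). Along the horizontal axis Omg alone passed, with higher signal ventrally (0.169 ± 0.030, adjusted p = 0.0371), and among sagittal fractions 5 genes were lower and 5 higher at the sides.

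Of the 6 enzymes of myelin lipids, 4 were highest in coronal fraction 15 and 2 in fraction 3. The log2 of their summed signal was highest in fraction 15 (4.86). Of the 6, 2 had coronal slopes that passed, both falling in rostral direction. Fa2h, a fatty acid hydroxylase, had a slope of -0.409 ± 0.039, and Ugt8a, which makes galactosylceramide, -0.226 ± 0.022 (adjusted p = 9.53e-06 for each). In the sagittal series 4 were lower and 1, Elovl1, was higher at the sides, and none passed along the horizontal axis (2 at an unadjusted p under 0.05).

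Of 7 genes of newly formed oligodendrocytes tested, 4 fell in the coronal series: Bcas1 (-0.238 ± 0.024), Gpr17 (-0.171 ± 0.024), Enpp6 (-0.136 ± 0.043) and Itpr2 (-0.094 ± 0.014), with a list median of -0.094. Gpr17, a receptor of cells about to mature, was at its highest in fraction 3 (5.24) and at its lowest in fraction 15 (2.28). None passed along the horizontal axis (3 at an unadjusted p under 0.05), and among sagittal fractions Gpr17 was lower and Bmp4 higher at the sides.

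Precursor genes went both ways. Of 14 tested in the coronal series, 5 fell and 4 rose, with a median of 0.004. Susd5 (-0.259 ± 0.039), C1ql1 (-0.130 ± 0.031), Megf11 (-0.121 ± 0.022), Pcdh15 (-0.103 ± 0.021) and Lhfpl3 (-0.088 ± 0.020) fell, and Matn4 (0.181 ± 0.063), Rlbp1 (0.137 ± 0.027), Vcan (0.080 ± 0.018) and Emid1 (0.074 ± 0.024) rose. Cspg4, the NG2 proteoglycan that marks precursors beside Pdgfra, did not pass (-0.010 ± 0.014) and lay between 0.34 in fraction 15 and 1.19 in fraction 3. None passed along the horizontal axis (3 at an unadjusted p under 0.05), and 6 were lower and 3 higher at the sides of the sagittal series.

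Of 7 regulators of differentiation tested, Nkx6-2 (-0.278 ± 0.066), Zfp536 (-0.059 ± 0.019) and Nkx2-2 (-0.041 ± 0.012) fell in rostral direction. Of 6 inhibitors, Sox5 (0.110 ± 0.025) and Id2 (0.076 ± 0.021) rose. Both lists gave 0 calls along the horizontal axis by limma, with 0 regulators and 2 inhibitors at an unadjusted p under 0.05, and among sagittal fractions 3 regulators were lower, with Id4 lower and Sox5 higher among the inhibitors. Of the PDGF ligands and the sister receptor, none of 5 passed in the coronal or horizontal series (0 and 1 at an unadjusted p under 0.05), and Pdgfc (0.222 ± 0.031) and Pdgfrb (0.100 ± 0.030) were higher at the sides.

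Other cell types are in the same fractions, and several of their genes had coronal slopes too. Of 8 astrocyte genes 4 fell: Aqp4 (-0.205 ± 0.018), Fgfr3 (-0.187 ± 0.025), Gfap (-0.171 ± 0.029) and Slc1a2 (-0.082 ± 0.009), while the brightest, Aldoc (-0.052 ± 0.027) and Aldh1l1 (-0.044 ± 0.024), did not pass. Of 7 neuronal genes the neurofilament genes Nefm (-0.244 ± 0.022) and Nefl (-0.211 ± 0.021) fell, Tubb3 (0.074 ± 0.012) and Syt1 (0.026 ± 0.008) rose, and Stmn2 (0.012 ± 0.016) did not pass. Of 6 genes listed for dividing cells Cdk1 (-0.091 ± 0.028) and the growth factor receptor gene Egfr (-0.070 ± 0.013) fell. Mki67 (-0.075 ± 0.037) and Birc5 (-0.048 ± 0.034) did not pass. None of 5 microglial genes (Csf1r 0.019 ± 0.018, Cx3cr1 -0.015 ± 0.013) and none of 7 genes of fibroblasts and meninges (Col1a2 -0.006 ± 0.039, Dcn 0.003 ± 0.055) passed, with 2 and 0 at an unadjusted p under 0.05. Their part in the slopes of the sheath genes was not tested.

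Schwann cells of the cranial nerves make myelin with several of the same proteins. Of 11 listed Schwann genes 9 were tested, since Pmp2 was above background in 0 fractions and Cdh19 in 1 coronal fraction. Ncmap fell in the coronal series (-0.068 ± 0.024) and rose ventrally (0.235 ± 0.041, adjusted p = 0.0356), Gldn fell in the coronal series (-0.050 ± 0.016), and Drp2 (0.041 ± 0.015) and Pmp22 (0.000 ± 0.029), the brightest, did not pass. The log2 of their summed signal ran from 3.14 in coronal fraction 8 to 4.06 in coronal fraction 15. It ran from 3.15 to 3.91 over the horizontal and from 3.20 to 3.79 over the sagittal fractions.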

How the data were processed

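Total RNA of 34 brain fractions (15 coronal, 8 horizontal and 11 sagittal) was measured on 1 single-colour Agilent mouse array each. The deposited scanner files hold intensities that the authors extracted with Agilent Feature Extraction 10.10.1.1, background-subtracted by that program and not scaled between arrays. A further table deposited by the authors holds log2 values, and 99.9% of its values lay within 0.02 of a constant offset per array from the values computed here.

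The processed intensity of the spots of a probe was averaged without outlier spots and then taken as log2. Each array was set relative to the log2 of its own 75th percentile. A spot counts as detected where the program calls it well above background. The test took the 34186 of 55681 probes that every series showed above background in 1 fraction or more. A straight line over fraction number (coronal, horizontal) or over distance from fraction 6 (sagittal) was fitted to all of them with limma 3.58.1 in R 4.3.3, with Benjamini-Hochberg adjustment and a threshold of 0.05. The slope of each probe less that of Pdgfra, Olig1, Olig2 or Sox10 was fitted in the same way. A gene with several probes was represented by the probe with the highest median signal. Of each other oligodendrocyte list the rule named the 4 genes with the steepest slope among those that passed along the coronal and along the horizontal axis, any that passed with a slope opposite to that of Mbp, and Cspg4. Of the lists of other cell types it named the 2 brightest genes and any that passed. For Mbp, Mag, Olig1 and Pdgfra it named the 5 genes with the highest Pearson's r. Some results that the rule names are not reported here. Further precursor genes that fell and genes named for the sagittal series were chosen after their values were seen. The fit was tested on simulated data of 34186 probes per series, with a slope of each size planted in 50 of them.

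The members and lists were chosen with earlier results of these data known, and the 6 ensheathing glia genes after the values were seen. Alternatives covered scaling, background correction (normexp on the median signal, since the files used here hold no mean signal), detection filter, probe choice, slide as a block, fractions left out and a curve. The number of arrays limits the precision, since no fraction was measured again. Position, slide and array cannot be fully told apart.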

Additional observations from a re-analysis of the deposited data

Results flagged for a closer look

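Olig1 in horizontal fraction 6 lay apart from the other 7 horizontal fractions. Its log2 normalized signal there was 4.40 and its gap to the nearest other fraction was 0.598 of the range of the series, above Dixon's limit of 0.526 for 8 values. Chance flags about 1 in 20 groups of values, and 15 groups were searched. Fractions of a series are positions and not replicates.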

How the results depend on the processing

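Of 94 counts of member genes recomputed under an alternative, 74 stayed within 1.5 times the value reported. In the coronal series 4 genes passed. The count was 8 with a curve, where 19140 of the 34186 probes passed. It was 1 with slide as a block, 7 without the first fraction and 2 within slide 3. In the horizontal series it was 1 without both end fractions, against 0. In the sagittal series, where 5 passed, it was 2 with scaling to the array median, 1 without the detection filter, 1 with slide as a block, 2 with slide as a random block, 2 without the first fraction, 2 without the last, 1 without both, 2 with the middle at 5.5 and 1 within slide 4. Against Pdgfra 4 of 5 myelin genes passed in the coronal series, Mag and Mobp below it and Mbp and Mog above it, against 79.8% of all probes in either direction, and the count was 1 with slide as a block, 2 within slide 2, 0 within slide 3 and 2 with Olig1, Olig2 or Sox10 in its place.

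Of 915 slopes of single probes, 807 stayed on their side of the threshold, 76 lost and 22 gained the call, and 10 changed sign with a call in either fit. The 807 include 44 that changed sign, or were 0 after rounding, without passing in either fit. Within slide 3, chosen after seeing the data, Mbp A_52_P329451 became 0.082, Mobp A_51_P291224 0.017, Mobp A_55_P1958798 0.172 and Cnp 0.038. Against Pdgfra within slide 3 they were 0.163 (Mbp A_52_P329451), 0.098 and 0.253 (the Mobp probes) and -0.068 (Mbp A_52_P604195). Sox10 was -0.051 without coronal fractions 14 and 15, also chosen after seeing the data, and Mbp against Pdgfra was -0.042 as the mean of its probes. The cause was not tested.

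Over all probes, the 9677 coronal calls became 16605 without the filter, 251 with slide as a block, 19140 with a curve and 2099 within slide 3. The 603 horizontal calls became 175 without the filter, 962 with slide as a block, 155 and 198 without the last or both end fractions, 1124 with a curve and 330 within slide 1. The 9666 sagittal calls became 15146 with normexp, 2142 with slide as a block, 3434 without both ends and 1950 within slide 4. Against Pdgfra, the 27281 coronal calls became 45266 without the filter, 12801 with slide as a block, 13537 within slide 2 and 3086 within slide 3, and the 212 horizontal calls became 61 without the filter, 400 with limma-trend, 1643 and 744 with slide as a block and as a random block, 26 and 58 without the last or both end fractions, 2982 with a curve and 354 within slide 1. No paired analysis was possible because the fraction numbers are positions along different axes of different mice.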
